A study of Mus musculus with 8 samples.

Results

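Liver transcripts measured 24 h after partial hepatectomy were compared with those at 0 h, on 4 of the 8 Agilent 1-colour arrays of the series. Each time had 1 Mxcre- and 1 Mxcre+ liver array, so there were 2 arrays a side and genotype was a block. Of 18316 genes that could be named on the array, 13598 stood well above background on 2 or more of the 4 arrays and form the comparison. All 8 samples were liver of 129/SV/B6 mice, and all groups, controls included, had been irradiated, had received a bone marrow transplant and had then been given poly(IC). The Mxcre- livers are the Survivin wild type and the Mxcre+ livers are the Survivin-deleted group. The other 4 arrays, of 36 and 48 h, served only to estimate the spread and as levels set side by side. The sample titles give the times used here, and a protocol text that puts the analysis at a later point was set aside.

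Some features of the samples bound what the groups can stand for. The Mx promoter that drives the recombinase answers to interferon, which poly(IC) induces, and it is active in several cell types of the liver besides hepatocytes. No sham-operated liver was analysed here, and the hour of day at which livers were taken is not given in the sources used here. Whether each array stands for 1 mouse or for pooled mice is not given in the labels. They give sex as male or female for every sample, which leaves the sex of each one unnamed. Each genotype and time had 1 array. The spread behind a p-value is therefore how far the gap between the 2 genotypes varied over all 4 times. Nothing in the labels describes the spread between livers of 1 group.

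Partial hepatectomy removes several lobes, and the hepatocytes of the remaining lobes leave quiescence, first switching on immediate early transcription factors and then, in mice, copying DNA on the second day. During this interval the remnant also stores fat transiently, carries on its plasma protein and metabolic work with less tissue, and is exposed to more cytokines and bile acids per cell. The first day is therefore the interval before most hepatocytes enter S phase.

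Each level below is a log2 intensity from which the array's 75th percentile was subtracted, and each pair of levels is given as Mxcre- and then Mxcre+ liver. Birc5, which encodes Survivin, was at -0.25 and -2.80 at 0 h, then -0.55 and -3.49 at 24 h, lower in Mxcre+ liver at both times, and whether its probe lies within the deleted part was not looked at. Liver identity was evident at both times: Alb, which encodes albumin, was at 10.13 and 10.21 at 0 h and 10.05 and 10.04 at 24 h. Between 61.9% and 64.4% of the 43379 spots of each of the 4 arrays were well above background, and replicate spots had a median coefficient of variation between 4.73% and 6.51%. All 4 arrays came from 1 slide and scan, whereas the 36 and 48 h arrays came from another, so the comparison lies within a slide. The 2 times differed in Y-linked transcripts. Ddx3y, a Y-linked RNA helicase gene, was at -6.44 and -6.67 at 0 h and 1.63 and 1.20 at 24 h, and Eif2s3y, a Y-linked translation factor gene, at -6.39 and -5.89 at 0 h and 1.20 and 0.82 at 24 h. Both were well above background on both 24 h arrays and on neither 0 h array. Xist, the RNA of the inactive X chromosome, was at 5.46 and 5.49 at 0 h and 3.48 and 4.20 at 24 h, lower on both 24 h arrays without passing the test (limma adjusted p = 0.163). Xist was well above background on all 4 arrays, so both 24 h arrays carried it beside the Y-linked transcripts. Whether these arrays hold RNA of both sexes, and from which cells the Y-linked transcripts came, was not tested. For genes that differ between the sexes, a change with time and a difference in the sex of the mice cannot be told apart here.

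At 24 h, 742 genes were higher than at 0 h, which is 5.46% of those tested, and 893 were lower, which is 6.57% (limma, Benjamini-Hochberg adjusted p below 0.05). The higher genes included lipid droplet proteins and immediate early factors. The lower ones included enzymes of bile acid, amino acid and drug metabolism and output genes of the circadian clock. Of the called genes, 414 were at least 2-fold higher and 521 at least 2-fold lower, and 19 and 13 passed 16-fold. All 1635 called genes had 1 sign in both genotypes and no overlap between the times. A call itself favours both traits, so neither is further evidence. Over all tested genes 75.7% had 1 sign in both genotypes. Lack of overlap was common without a call too: 23 of 24 cholesterol genes had none, with 1 called. The median difference of all tested genes was -0.03 and its quartiles were -0.36 and 0.29 (log2), with a median SE of 0.18. A further 692 genes differed by at least 2-fold and were not called, and the smallest called difference was 0.51.

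The number of calls rested on the pooled spread of all 8 arrays. With the 4 arrays of 0 and 24 h alone, which leave 1 residual degree of freedom, 6 genes were called, 3 in each direction, and 4349 had an unadjusted p below 0.05 (4373 with all 8 arrays). Leaving out the Mxcre- 0 h array gave 293 calls and leaving out the Mxcre+ 0 h array gave 2. Without the Mxcre- 24 h array or without the Mxcre+ 24 h array limma called 0 genes, with 2749 and 2889 genes at an unadjusted p below 0.05. In each of these fits the lone array is assumed to vary like the other groups. A background correction that adds an offset to every spot gave 41 calls, 30 higher and 11 lower, and the same correction followed by quantile normalisation, chosen after seeing the data, gave 1098 higher and 1091 lower.

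**Figure D1:**
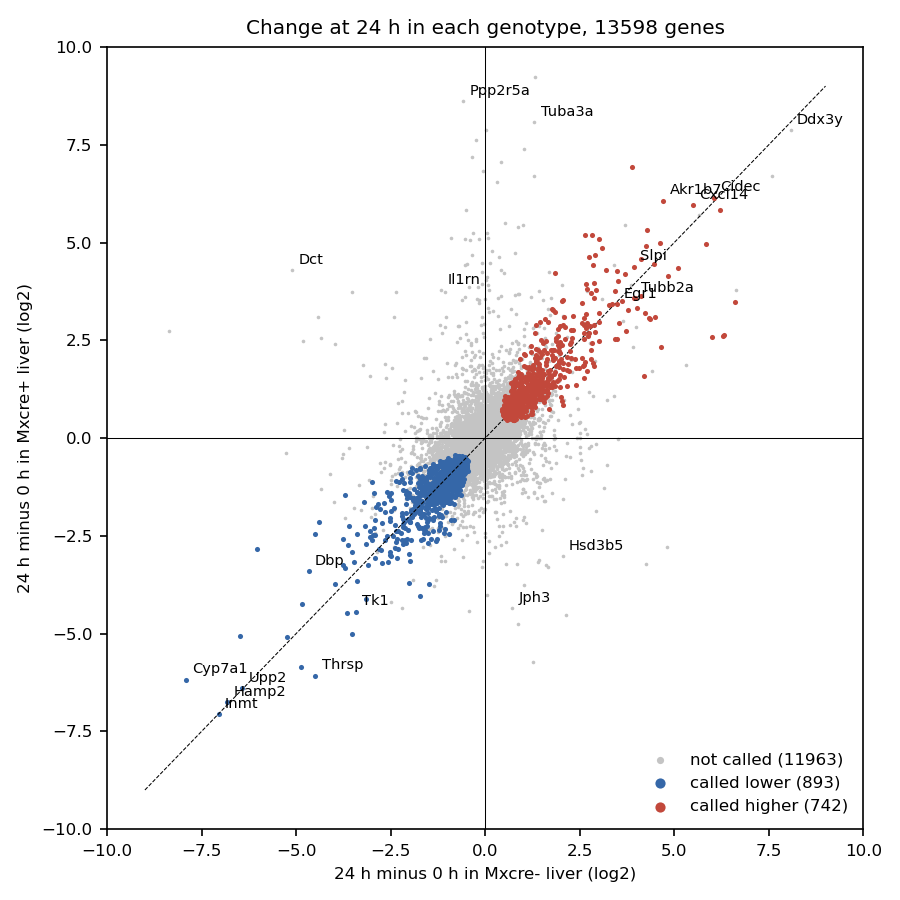
Each point is 1 of 13598 genes, with its 24 h minus 0 h difference (log2) in Mxcre- liver on the horizontal axis and in Mxcre+ liver on the vertical axis; red points are the 742 called higher, blue the 893 called lower, and the dashed line marks equal change. The called genes lie in the quadrants of equal sign, while Dct, Ppp2r5a and Jph3 lie far from the line and were not called.

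Cidec, Cxcl14 and Akr1b7 had the largest measured rises among genes well above background on all 4 arrays. Cidec encodes a protein that makes lipid droplets fuse and grow, and its level was -0.74 and -1.03 at 0 h and 5.31 and 5.12 at 24 h. The 2 times did not overlap, and Cidec was 68.6-fold higher at 24 h, a difference of 6.10 ± 0.73 (log2, SE, n = 2 arrays a side; limma adjusted p = 0.0198). Its later levels were 4.89 and 6.30 at 36 h and 3.90 and 6.35 at 48 h, so neither genotype returned to the 0 h level. Cxcl14, a chemokine gene, was at -0.62 and -0.99 at 0 h and 4.87 and 4.96 at 24 h and rose 52.7-fold, by 5.72 ± 0.29 (limma adjusted p = 0.0131). Akr1b7, an aldo-keto reductase that clears reactive aldehydes, was at -1.62 and -2.15 at 0 h and 3.09 and 3.93 at 24 h and rose by 5.39 ± 0.45 (limma adjusted p = 0.0145). Akr1b7 had come down again at 48 h, when it stood at -1.08 and -0.25, much nearer its 0 h values.

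Scara5, a scavenger receptor that takes up ferritin, was at -3.19 and -3.94 at 0 h and 1.05 and 0.98 at 24 h and rose 23.9-fold (limma adjusted p = 0.0145). Syt12, a synaptotagmin gene, rose by 4.46 ± 0.29 with nearly equal changes in the 2 genotypes, 4.47 and 4.45. Slpi, a secreted inhibitor of leukocyte proteases, was at 0.97 and 0.79 at 0 h and 4.90 and 5.17 at 24 h and rose by 4.16 ± 0.33. These 3 genes stayed within 2 log2 units of their 24 h level on all later arrays. Cd14, the co-receptor for bacterial lipopolysaccharide, rose by 4.06 ± 0.82, and Smpd3, a neutral sphingomyelinase gene, by 3.98 ± 0.61. Lcn2, which encodes a siderophore-binding protein, was at 4.73 and 2.49 at 0 h and 7.54 and 7.67 at 24 h, and Saa3, a serum amyloid gene, at 6.21 and 3.63 at 0 h and 8.84 and 8.81 at 24 h. Both rose by about 4 log2 units, 3.998 for Lcn2 and 3.90 for Saa3, and for both the 0 h arrays lay more than 2 log2 units apart while the 24 h arrays nearly coincided. The female-biased P450 genes Cyp2b9 and Cyp2b13 rose by 4.47 ± 0.96 and 4.45 ± 0.94 (limma adjusted p = 0.0486 and 0.0479), with a larger change in Mxcre- than in Mxcre+ liver.

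Inmt and Cyp7a1 had the largest falls, of nearly equal size. Inmt encodes an enzyme that methylates indole amines and was at 6.59 and 7.06 at 0 h and -0.45 and -0.001 at 24 h, 133-fold lower at 24 h (-7.05 ± 0.47, limma adjusted p = 0.0131). Its fall was nearly equal in both genotypes, -7.04 in Mxcre- and -7.06 in Mxcre+ liver. Cyp7a1, whose enzyme sets the rate of bile acid synthesis, was at 3.92 and 3.19 at 0 h and -3.98 and -2.99 at 24 h and fell 132-fold (-7.04 ± 0.54, limma adjusted p = 0.0145), with a smaller difference of -3.74 after offset background correction. Hamp2, a copy of the hepcidin gene, was at 5.22 and 5.24 at 0 h and -1.61 and -1.52 at 24 h. Its arrays of 1 time lay within 0.1 of each other, and its difference of -6.79 ± 0.17 had the smallest adjusted p of all genes (limma adjusted p = 0.00276). Near-identical copies can share signal on a probe: Hamp, which encodes hepcidin, the hormone that limits iron export, was at 8.32 and 8.35 at 0 h and 7.12 and 7.77 at 24 h and fell by only 0.89 ± 0.18 (limma adjusted p = 0.0421).

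Upp2, a liver uridine phosphorylase gene, was at 3.63 and 3.78 at 0 h and -2.80 and -2.62 at 24 h and fell 85.1-fold (limma adjusted p = 0.0145). Its level at 36 h was 1.17 and 0.57 and at 48 h -2.83 and -1.04, so it was low at 24 and 48 h and higher between them. Slc22a26, of the organic anion transporter family, differed by -5.78 ± 0.85, and Hao2, which encodes a peroxisomal 2-hydroxyacid oxidase, by -4.45 ± 0.80. Car3, which encodes a carbonic anhydrase abundant in liver, fat and muscle, was at 7.86 and 7.91 at 0 h and 4.72 and 3.80 at 24 h.

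Tk1 and Afmid fell together. Tk1 encodes the thymidine kinase of the cytosol, an S-phase enzyme, and was at 3.83 and 3.98 at 0 h and 0.42 and -0.46 at 24 h, a fall of 15.2-fold (-3.93 ± 0.31, limma adjusted p = 0.0145). Afmid encodes kynurenine formamidase of tryptophan breakdown and was at 3.52 and 3.66 at 0 h and -0.01 and -1.35 at 24 h, a fall of 19.3-fold (-4.27 ± 0.35, limma adjusted p = 0.0145). In the RefSeq table Tk1, Afmid and Birc5 lie next to each other, in this order, on chromosome 11. Birc5 differed by -0.49 ± 0.94 and was not called (limma adjusted p = 0.762). The neighbours were looked up after the values had been seen, and whether probes of Tk1 and Afmid read shared sequence was not examined. At 48 h Tk1 had regained 3.37 and 2.37 while Afmid was at 0.99 and 0.54.

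**Figure D2:**
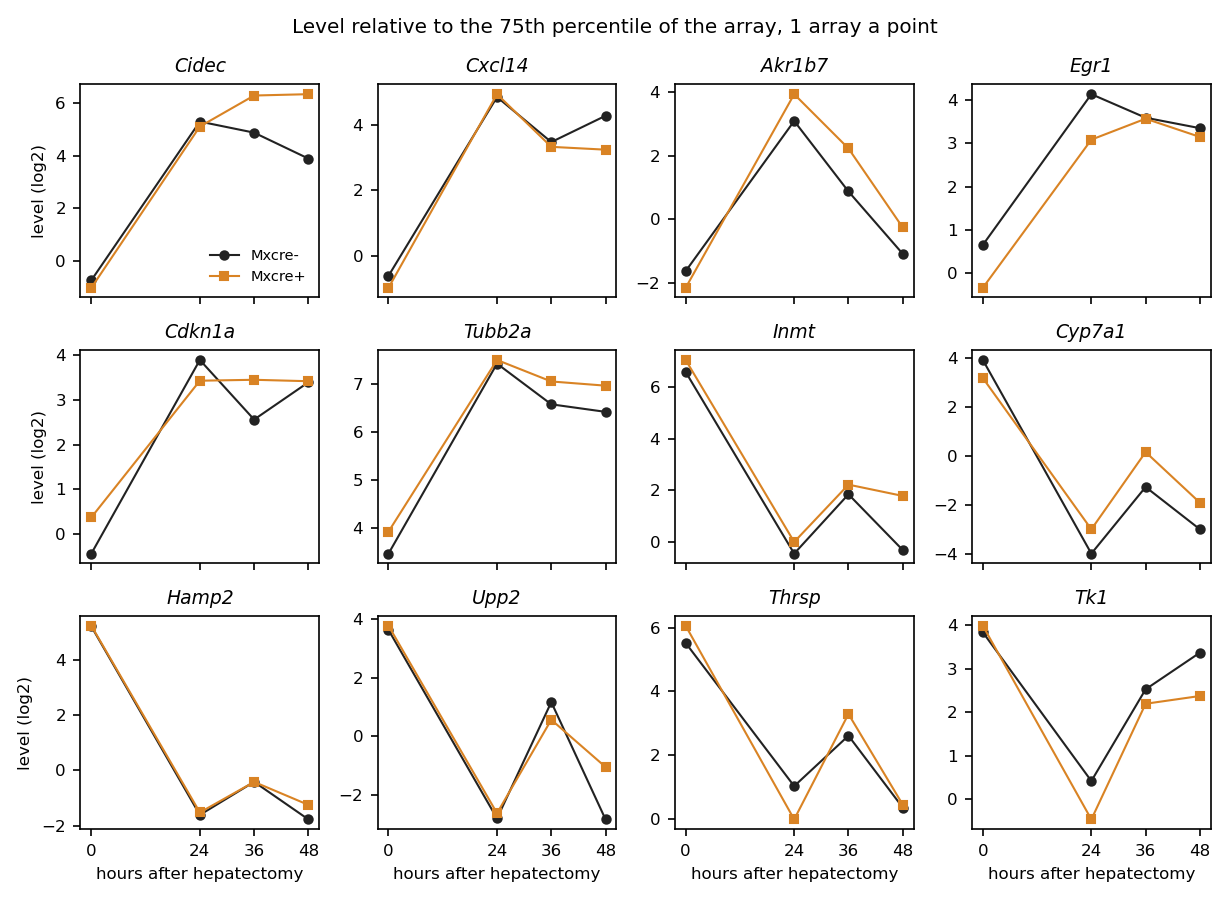
Levels (log2, the array's 75th percentile subtracted) of 12 genes against hours after hepatectomy, 1 array a point, black circles for Mxcre- and orange squares for Mxcre+ liver. The 2 genotypes run close together between 0 and 24 h in all 12 panels, Inmt, Hamp2 and Thrsp partly recover at 36 h, and Akr1b7 declines after 24 h.

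Some called genes were not well above background at one of the times, so that only a bound on the change can be given (the mean of the bright side against, on each dim array, the lowest signal well above background or the probe's own where that was higher). This applied to 49 of the higher and 55 of the lower genes. Among the higher ones Retnla, a secreted product of alternatively activated macrophages, was at least 18.2-fold higher, the calpain gene Capn8 at least 14.8-fold and Cidea, a lipid droplet protein related to Cidec, at least 11-fold. Dab1, an adaptor of reelin signalling, was at least 10.4-fold higher and Mtnr1a, a melatonin receptor gene, at least 9.66-fold. Among the lower ones Ranbp3l was at least 8.49-fold lower, with levels of -1.26 and -1.43 at 0 h and -6.49 and -6.53 at 24 h. Pstpip1, an adaptor of leukocyte cytoskeletons, was at least 8.48-fold lower, the retinal membrane protein gene Lrit2 at least 7.04-fold, the elongation factor gene Ell3 at least 6.29-fold, the proton pump subunit gene Atp6v0d2 at least 5.21-fold and the serine protease gene Htra4 at least 4.93-fold. None of these 11 genes had overlapping times, as was so for every called gene.

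Several immediate early transcription factors were above their 0 h level at 24 h. Of 23 tested members, 9 rose and 0 fell, and the median difference was 1.33, beside -0.03 over all tested genes. Egr1, a zinc finger factor induced by serum and injury, was at 0.65 and -0.34 at 0 h and 4.13 and 3.08 at 24 h and rose 10.9-fold (3.45 ± 0.31, limma adjusted p = 0.0145). Fos was at -3.62 and -3.995 at 0 h and -1.05 and -2.15 at 24 h and rose by 2.21 ± 0.30, and Jun, its partner in the AP-1 dimer, was at -1.67 and -1.29 at 0 h and 0.24 and 0.17 at 24 h and rose by 1.68 ± 0.16. The remaining calls were Egr2, Atf3, Junb, Btg2, Fosl2 and Jund, with differences from 0.85 to 2.39. The 2 probes of Fosl2 had opposite signs, at 1.21 and -0.14, and the one that stood for it was well above background on 1 of 2 arrays at 0 h. Myc, a growth-promoting factor, was at -0.48 and -1.07 at 0 h and 1.36 and 0.61 at 24 h, a difference of 1.76 ± 0.41 that did not pass (limma adjusted p = 0.0559), and Ier3 and Klf4 differed by 3.22 and 2.43 without passing.

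Signals that act on the remnant moved in both directions. Of 18 growth factors and receptors, 3 rose and 3 fell. Hgf, the hepatocyte growth factor made by stellate and endothelial cells, was at -1.20 and -0.98 at 0 h and -0.26 and -0.12 at 24 h and rose by 0.90 ± 0.13, whereas Hgfac, the protease that activates it, fell by 1.40 ± 0.20. Plaur, the receptor of the urokinase that also activates this factor, was at -2.67 and -3.94 at 0 h and 0.08 and 0.68 at 24 h and rose 12.8-fold (limma adjusted p = 0.0437). Ghr, the growth hormone receptor, and Erbb3, a co-receptor of the EGF receptor family, fell by 1.50 ± 0.23 and 1.46 ± 0.13. Btc, an EGF receptor ligand, was at least 2.91-fold higher on the probe that stood for it, while its other probe differed by -0.86. Areg, another ligand of that receptor, was below the filter, at -6.25 and -6.59 at 0 h and -3.41 and -4.08 at 24 h.

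Of 19 members of the list of priming cytokines and interleukin 6 signalling, 1 rose and 1 fell. That is 5.3% in each direction, near the 5.46% higher and 6.57% lower of all tested genes. Il1r1, an interleukin 1 receptor, rose by 1.17 ± 0.17. Lifr, which shares the signalling chain of the interleukin 6 receptor, was at 4.01 and 4.60 at 0 h and 1.94 and 2.02 at 24 h. It fell by 2.33 ± 0.51 (limma adjusted p = 0.0492) on the probe that stood for it, and its 5 probes ran from -2.33 to -0.67. In TGF beta and activin signalling, 4 of 17 rose and 0 fell. Inhbb, an activin subunit, was at -1.92 and -2.37 at 0 h and 0.95 and 0.52 at 24 h. It rose by 2.88 ± 0.36 on the probe that stood for it, while its other probe differed by 0.03. Inhba, the other main activin subunit, and the ligand Tgfb3 had smaller rises.

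Inhibitors of the cell cycle were called in both directions. Among 17 G1 cyclins and partners 3 rose and 3 fell. Cdkn1a, which encodes the inhibitor p21, was at -0.44 and 0.37 at 0 h and 3.89 and 3.43 at 24 h and rose 12.9-fold (3.70 ± 0.37, limma adjusted p = 0.0164). Cdkn1c, which encodes the inhibitor p57, went the other way, at 1.08 and 0.04 at 0 h and -1.80 and -1.73 at 24 h, and Cdkn2c and the pocket protein gene Rbl2 fell by 1.02 ± 0.13 and 1.21 ± 0.18. Cdk6 rose by 0.90 ± 0.14, and Cdkn2b, another inhibitor, was at least 2.23-fold higher. Of 20 targets of p53, 6 rose and 0 fell, among them Gdf15, a stress hormone, by 2.21 ± 0.36 and Bax, a death effector, by 0.72 ± 0.15. Mdm2, the classical feedback target, differed by 0.54 ± 0.16 and did not pass (limma adjusted p = 0.0859).

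Of 25 replication genes tested, 0 rose and 2 fell (8.0%, beside 6.57% of all tested genes). The median was 0.16 (-0.18 without the Mxcre- 0 h array and -0.09 without the Mxcre+ 24 h array). Besides Tk1, the faller was Mcm10, a replication initiation factor, at 4.31 and 3.49 at 0 h and 2.59 and 1.90 at 24 h (limma adjusted p = 0.0281). Pcna, the sliding clamp of the polymerase, was at 1.89 and 1.99 at 0 h and 2.10 and 1.94 at 24 h, with overlapping times, and reached 4.02 and 3.57 at 36 h. Mcm2, a subunit of the replicative helicase, was at -2.12 and -1.73 at 0 h and -1.32 and -1.05 at 24 h and reached 2.18 and 0.70 at 36 h. Of 17 mitotic genes tested, 1 rose (5.9%, beside 5.46% of all tested genes). A further 12 were below the filter at 0 and 24 h, such as Cdk1, the kinase that starts mitosis. Cdk1 levels were -6.41 and -6.73 (0 h), -4.69 and -6.56 (24 h) and 0.89 and 0.83 (48 h). The 1 called was Nek2, a centrosome kinase, at least 2.19-fold higher. Mki67, a marker of cycling cells, was at -1.24 and -3.79 at 0 h and -1.05 and -1.88 at 24 h, with overlapping times. Among 29 genes of ribosome biogenesis 27 had positive differences, with a median of 0.31, and 4 rose: Nhp2, Nop58, Polr1e and Ddx21, by 0.73 to 1.07.

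**Figure D3:**
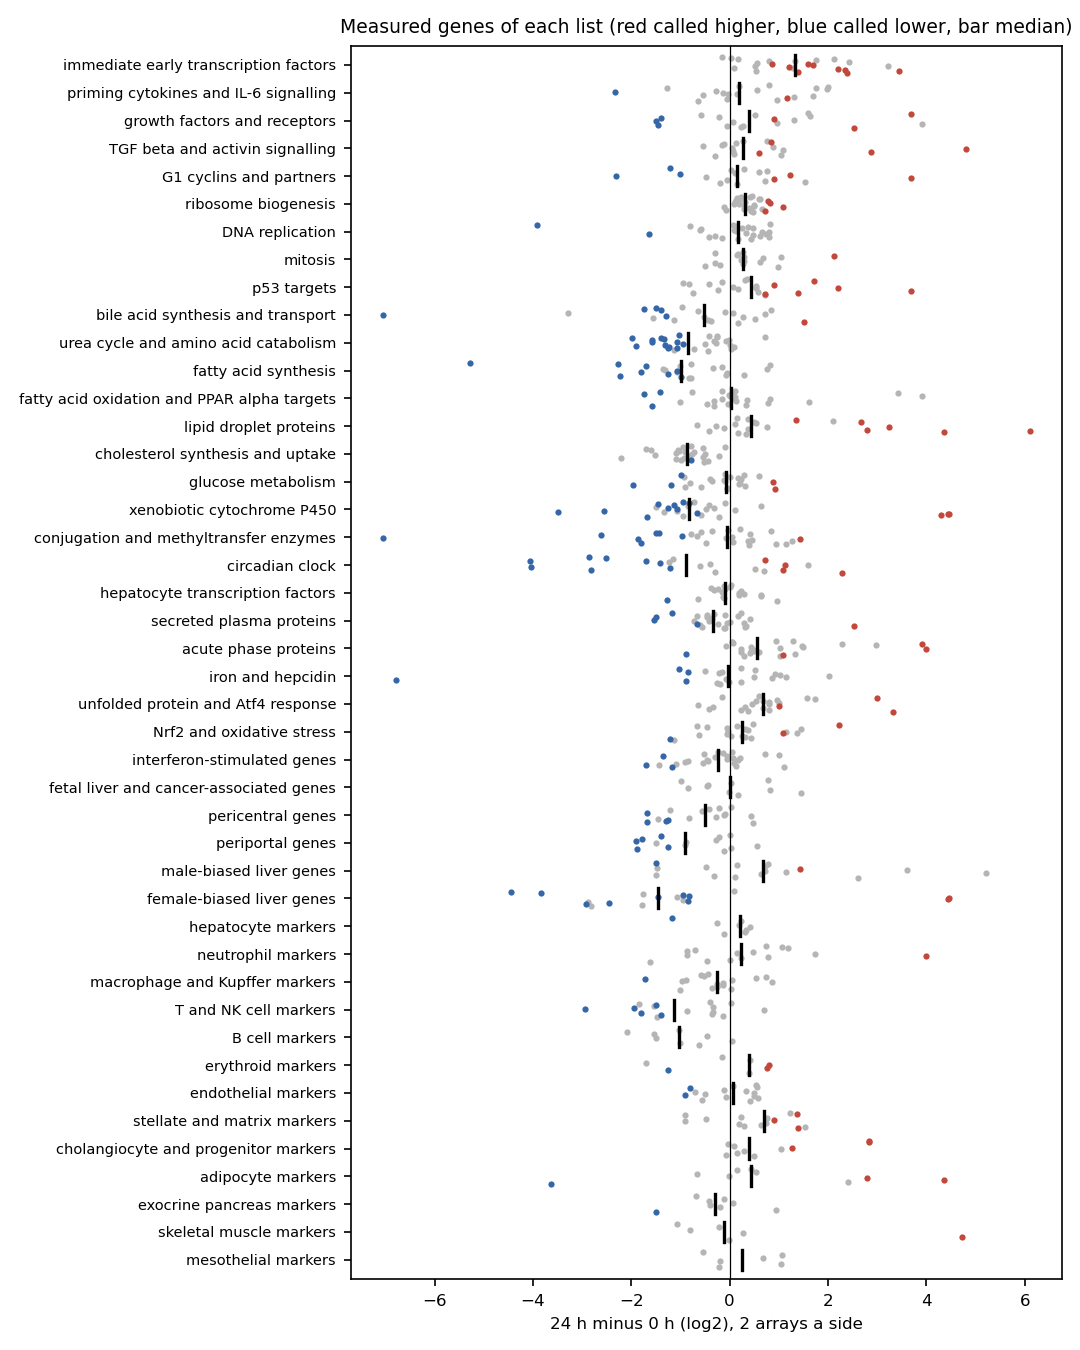
Each row is a gene list, the Y-linked genes left out, and each point a tested member, placed by its 24 h minus 0 h difference (log2, 2 arrays a side); red points were called higher, blue called lower, grey not called, and black bars are list medians. The medians shown run from -1.45 (female-biased liver genes) to 1.33 (immediate early transcription factors).

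In bile acid metabolism the first enzyme of synthesis and an importer fell, while a phospholipid exporter rose. Of 21 genes of bile acid synthesis and transport, 1 rose and 5 fell (median -0.52). After Cyp7a1, described above, Slc10a1, the sodium-dependent importer of bile acids, was at 4.12 and 4.14 at 0 h and 2.73 and 2.04 at 24 h and fell by 1.75 ± 0.32 (limma adjusted p = 0.0353). Slc27a5, which activates bile acids for conjugation, Nr1h4, the bile acid receptor FXR, and Cyp27a1, of the acidic synthesis pathway, fell by 1.50 ± 0.16, 1.39 ± 0.16 and 1.30 ± 0.28. Abcb4, the phospholipid exporter of the bile canaliculus, was at 5.59 and 5.79 at 0 h and 7.30 and 7.09 at 24 h and rose by 1.51 ± 0.29. Cyp8b1, which makes cholic acid, was at 0.70 and 1.30 at 0 h and -1.51 and -3.05 at 24 h, and its difference of -3.28 ± 1.45 did not pass (limma adjusted p = 0.195). Nr0b2, the repressor SHP, differed by 0.83 ± 0.45 and did not pass.

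Calls in amino acid breakdown and the urea cycle were all in 1 direction, with 13 of 28 members lower and 0 higher (median -0.84). Gls2, the liver glutaminase, was at 6.71 and 6.69 at 0 h and 4.73 and 4.84 at 24 h and fell by 1.91 ± 0.21 (limma adjusted p = 0.0183), and Prodh, the first enzyme of proline breakdown, fell by 1.98 ± 0.25. Of the urea cycle, Otc, Ass1 and Asl fell by 1.58 ± 0.15, 1.25 ± 0.20 and 1.06 ± 0.16. The tyrosine breakdown enzymes Hpd, Hgd and Fah fell too, with differences of -1.58, -1.08 and -1.24. With 1 array left out, the median ran from -0.91 (without the Mxcre- 0 h array) to -0.78 (without the Mxcre+ 0 h array). As described above, each of these fits called far fewer genes than the main one.

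Several fat storage proteins rose while several genes that make fatty acids fell. Of 20 lipid droplet proteins 6 rose and 0 fell. Plin2, the main droplet coat protein of hepatocytes, was at 6.19 and 6.27 at 0 h and 8.90 and 8.89 at 24 h, the arrays of each time lying within 0.1, and rose 6.33-fold (2.66 ± 0.17, limma adjusted p = 0.0131). Fabp4, a fatty acid carrier of fat cells and macrophages, was at 0.42 and 0.15 at 0 h and 3.32 and 2.85 at 24 h and rose by 2.80 ± 0.19. Hilpda, a hypoxia-induced inhibitor of lipolysis, rose by 3.24 ± 0.60 and Plin5, which tethers droplets to mitochondria, by 1.34 ± 0.28. Of 22 genes of fatty acid synthesis 8 fell and 0 rose (median -0.997). Thrsp, a lipogenic factor under thyroid and carbohydrate control, was at 5.52 and 6.06 at 0 h and 1.03 and -0.02 at 24 h and fell 39-fold (limma adjusted p = 0.0145). Srebf1 and Mlxipl, the insulin- and glucose-responsive regulators SREBP1 and ChREBP, fell by 2.28 ± 0.24 and 1.71 ± 0.26. Fasn, the fatty acid synthase, was at 6.89 and 7.15 at 0 h and 5.77 and 5.65 at 24 h, and its difference of -1.31 ± 0.29 lay at the threshold (limma adjusted p = 0.0503).

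All 24 tested genes of cholesterol synthesis and uptake had negative differences, with a median of -0.87, but only Ebp, a sterol isomerase, was called (-0.79 ± 0.12, limma adjusted p = 0.0263). Of 26 PPAR alpha targets and other genes of fatty acid oxidation, 3 fell (11.5%, beside 6.57% of all tested genes). Among them were Acaa1b, a peroxisomal thiolase, and Ppara itself, which fell by 1.58 ± 0.23 and 1.41 ± 0.24. The list's median was 0.03, and Pdk4 and Fgf21, both fasting-induced, differed by 3.41 ± 0.91 and 3.91 ± 1.05 without passing. In glucose metabolism 2 of 24 rose (8.3%) and 3 fell (12.5%), beside 5.46% and 6.57% of all tested genes. The glycolytic genes Aldoa and Ldha rose by 0.92 ± 0.15 and 0.87 ± 0.14, and Gys2, the liver glycogen synthase, and Pygl, the liver glycogen phosphorylase, fell by 1.20 ± 0.14 and 0.99 ± 0.12.

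Of 27 xenobiotic P450 genes, 22 had negative differences (median -0.82), and 10 fell and 3 rose. Cyp2c37 was at 6.77 and 6.51 at 0 h and 3.02 and 3.27 at 24 h and fell by 3.49 ± 0.46 (limma adjusted p = 0.0215), and Cyp1a2, Cyp2e1 and Cyp3a11, broad-range enzymes of hepatocytes, fell by 1.68 ± 0.35, 1.26 ± 0.27 and 1.12 ± 0.22. The 3 that rose were of the Cyp2b subfamily, with Cyp2b10 at -4.62 and -3.73 at 0 h and 1.37 and -1.14 at 24 h (well above background on 1 of 2 arrays at 0 h), and none of these 3 was called after offset background correction with quantile normalisation, which left 10 lower and 0 higher in the list. P450 genes of 1 subfamily are close in sequence, and a probe may read several. Some genes of this list are sex-biased, among them Cyp2b9 and Cyp2b13, and the 2 times differed in Y-linked transcripts. What sex contributed to these P450 differences was not tested. Of 26 conjugation and methyltransfer enzymes 7 fell, led by Inmt, and 1 rose: Gstp1, a glutathione transferase, at 7.38 and 7.07 at 0 h and 8.88 and 8.42 at 24 h. Calls among zonal genes were all in 1 direction, with 4 of 16 pericentral and 5 of 14 periportal genes lower and 0 higher in either (medians -0.50 and -0.91). Under quantile normalisation 2 pericentral and 5 periportal genes were called lower.

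The circadian clock had the highest share of called genes among the 45 lists described, with 4 of 20 higher and 8 lower, and the directions differed by role. The activators of the positive limb rose. Arntl, which encodes BMAL1, was at -2.13 and -1.59 at 0 h and 0.50 and 0.35 at 24 h and rose by 2.28 ± 0.29 (limma adjusted p = 0.0204). Its partner Clock was at -0.27 and -0.11 at 0 h and 0.92 and 0.86 at 24 h and rose by 1.08 ± 0.12. Npas2, which can stand in for Clock, was at least 2.11-fold higher, and Rora, a nuclear receptor that activates Arntl, rose by 0.72 ± 0.12.

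The 8 that fell were repressors and output genes of the loop. Per3 was at -0.61 and -1.01 at 0 h and -4.25 and -5.48 at 24 h and fell (limma adjusted p = 0.0145). It was well above background on both 0 h arrays and on 1 of 2 at 24 h, so no fold is given. Dbp, an output transcription factor that binds D-boxes, was at 6.38 and 5.14 at 0 h and 1.71 and 1.74 at 24 h and fell 16.4-fold (limma adjusted p = 0.0145), and Tef, of the same family, was at 4.02 and 3.93 at 0 h and 1.66 and 1.28 at 24 h and fell by 2.51 ± 0.19. Ciart, a repressor of the BMAL1 complex, was at -0.65 and -1.02 at 0 h and -3.41 and -3.89 at 24 h, and Usp2, a rhythmic deubiquitinase, at 1.05 and 2.08 at 0 h and -0.95 and -1.61 at 24 h. Per2, Nr1d2 and Cry2, all repressors of the loop, fell by 1.71 ± 0.35, 1.43 ± 0.18 and 1.21 ± 0.15. Per1 and Nr1d1 did not pass, at -1.24 ± 0.34 and -0.39 ± 0.58. By 36 h Dbp stood at 4.07 and 3.17 and Arntl at -1.71 and -0.68, each between the 0 and 24 h levels of the same genotype. The times of 0 and 24 h are a full day apart only if livers were taken at the clock time of surgery, which is not given.

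The promoters of clock genes hold the short motifs through which the loop is closed, and 3 of the fallers are shown because they carry them in the 250 bases before the start site (RefSeq, build GRCm38.p6, 5′ to 3′ on the gene's strand). Capitals mark the E-box CACGTG, read by BMAL1 with CLOCK, or the D-box TTATGTAA, read by DBP and TEF. Both strands were searched, and no E-box overlapped a D-box in these windows. Ciart has 3 E-boxes at chr3:95882229-95882478 (minus strand), Per3 has 2 D-boxes at chr4:151044666-151044915 (minus strand), and Tef has 1 E-box at chr15:81811164-81811413 (plus strand). Another Tef window, at chr15:81802423-81802672, also has 1 E-box and is not shown.
Ciart: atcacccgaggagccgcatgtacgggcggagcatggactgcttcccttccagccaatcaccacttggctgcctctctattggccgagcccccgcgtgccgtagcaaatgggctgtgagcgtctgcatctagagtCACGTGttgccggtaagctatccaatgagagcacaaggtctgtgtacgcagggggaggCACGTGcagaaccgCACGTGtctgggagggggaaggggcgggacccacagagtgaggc
Per3: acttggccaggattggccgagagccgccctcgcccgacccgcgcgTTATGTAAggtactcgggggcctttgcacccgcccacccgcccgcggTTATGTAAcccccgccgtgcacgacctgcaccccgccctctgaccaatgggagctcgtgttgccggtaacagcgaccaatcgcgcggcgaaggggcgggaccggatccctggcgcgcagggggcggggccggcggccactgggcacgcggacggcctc
Tef: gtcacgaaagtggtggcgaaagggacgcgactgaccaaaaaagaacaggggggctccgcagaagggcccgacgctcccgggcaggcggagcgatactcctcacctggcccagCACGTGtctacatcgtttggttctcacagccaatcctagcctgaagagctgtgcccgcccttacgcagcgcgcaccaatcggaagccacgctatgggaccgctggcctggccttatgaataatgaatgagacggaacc
Of the 20 clock genes, 17 had a promoter in the table. A gene with several windows was counted as a carrier if any of them held the motif. An E-box lay in 5 of these 17 (29.4%), as against 6.86% of all 27025 genes with a promoter, and a D-box in 1 (5.88%) as against 0.977%. Among the carriers of an E-box Ciart and Tef fell, while Per1, Cry1 and Bhlhe41 were not called, and the 4 risers Arntl, Clock, Npas2 and Rora had neither motif in these windows. A match is a run of letters and says nothing of binding.

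**Figure D4:**
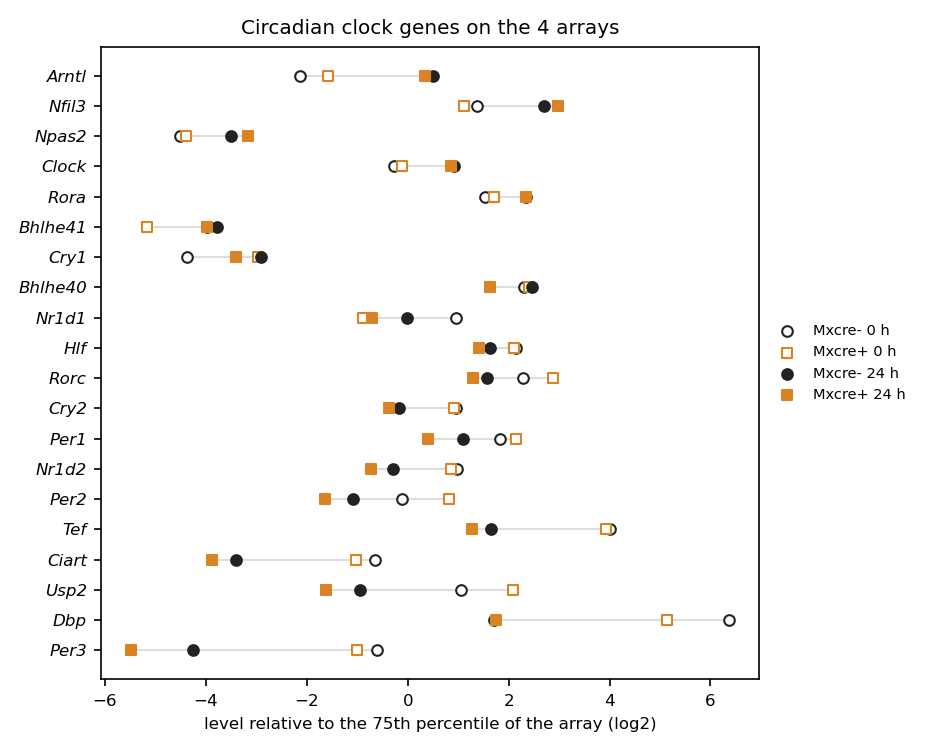
Levels (log2, the array's 75th percentile subtracted) of the 20 tested clock genes on the 4 arrays, ordered by difference; open symbols are 0 h, filled symbols 24 h, circles Mxcre- and squares Mxcre+. Arntl to Rora lie higher at 24 h and Cry2 to Per3 lower. The times overlap for some genes, among them Nr1d1, Bhlhe40 and Cry1.

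Plasma and acute phase proteins moved in opposite directions by their medians. Of 28 plasma protein genes 4 fell (14.3%) and 1 rose (3.6%), beside 6.57% and 5.46% of all tested genes (median -0.34). F7, coagulation factor VII, which has a short half-life in blood, fell by 1.53 ± 0.20, Igfals, the carrier of insulin-like growth factors, by 1.50 ± 0.22 and Ttr, transthyretin, by 1.17 ± 0.24. Apoa4, an apolipoprotein of triglyceride-rich particles, was at 3.27 and 2.93 at 0 h and 5.10 and 6.16 at 24 h and rose by 2.53 ± 0.54 (limma adjusted p = 0.048). Of 26 acute phase genes, 24 had positive differences (median 0.55), and 3 rose, namely Lcn2, Saa3 and Cp, while Crp fell by 0.89 ± 0.14. Saa1 was at 8.52 and 5.85 at 0 h and 10.20 and 10.10 at 24 h, a difference of 2.97 ± 0.67 that did not pass (limma adjusted p = 0.0533). The Mxcre+ 0 h array was the low one for Saa1, Saa3 and Lcn2. After offset background correction with quantile normalisation 9 of the acute phase genes were higher and 1 lower.

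Among hepatocyte transcription factors 1 of 19 was called, which is 5.3% lower beside 6.57% of all tested genes. It was Cebpa, a growth-restraining regulator, at 4.05 and 3.68 at 0 h and 2.51 and 2.69 at 24 h (-1.27 ± 0.20, limma adjusted p = 0.0268). Hnf4a was at 3.51 and 3.68 at 0 h and 3.79 and 3.77 at 24 h. Of 20 genes of iron handling 4 fell: Hamp2, Hamp, Tmprss6, a protease that restrains hepcidin, and Slc40a1, the iron exporter ferroportin, the last by 0.85 ± 0.11. Of 22 genes of the unfolded protein and Atf4 response 3 rose and 0 fell (median 0.68). Asns, the asparagine synthetase, was at 2.20 and 1.70 at 0 h and 5.47 and 5.10 at 24 h and rose 10.1-fold (limma adjusted p = 0.0178), and Psat1, of serine synthesis, was at -2.93 and -2.64 at 0 h and 0.08 and 0.32 at 24 h and rose by 2.99 ± 0.51. Dnajc3, a chaperone partner of the endoplasmic reticulum, rose by 1.01 ± 0.14, and Ddit3, the stress factor CHOP, was not called at -0.34 ± 0.32. Srxn1 and Gsr, both antioxidant enzymes under Nrf2, rose by 2.23 ± 0.29 and 1.08 ± 0.14, and Cat, catalase, fell by 1.21 ± 0.15. Of 25 interferon-stimulated genes 3 fell (Gbp3, Oas2 and Bst2) and 0 rose (median -0.24), with poly(IC) given to all groups before. Afp, a fetal liver gene, was at -1.44 and -1.43 at 0 h and 0.30 and -0.28 at 24 h and was not called, nor was any of the 10 tested genes of its list.

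Sex-dependent liver genes need to be read with the Y-linked signal given above. Of 17 female-biased genes 8 were called lower and 2 higher (median -1.45). Of 16 male-biased genes 1 was called in each direction (median 0.68), which is 6.2% beside 5.46% higher and 6.57% lower of all tested genes. Without the Mxcre- 0 h array the male-biased median was -0.18, with 0 higher and 2 lower. Hao2 was among the lower female-biased genes, with Acot3, an acyl-CoA thioesterase, at 0.62 and 0.56 at 0 h and -2.53 and -2.14 at 24 h. Cyp4a12a, a male-specific P450 of fatty acid hydroxylation, was at -2.70 and -0.17 at 0 h and 3.93 and 3.61 at 24 h, and Elovl3, a fatty acid elongase, at -2.25 and -1.99 at 0 h and 3.07 and -0.12 at 24 h. Neither passed the test (limma adjusted p = 0.185 and 0.116), although the times did not overlap. Cyp2b9 and Cyp2b13, also female-biased, lay on the opposite side. Ddx3y was at 0.56 and 1.72 on the Mxcre- arrays of 36 and 48 h, unlike on the Mxcre+ arrays of those times. That gap between the genotypes enters the pooled spread, and with it the p-values of sex-dependent genes. On the Mxcre+ arrays of 36 and 48 h, where Ddx3y was at -6.57 and -6.87 as at 0 h, Hao2 was at 0.15 and -4.81. Inmt was at 2.22 and 1.78 and Hamp2 at -0.41 and -1.25 on those same 2 arrays, and Cidec at 6.30 and 6.35. These 2 arrays differ from 0 h in time as well, and what sex contributed to any of these levels was not tested.

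**Figure D5:**
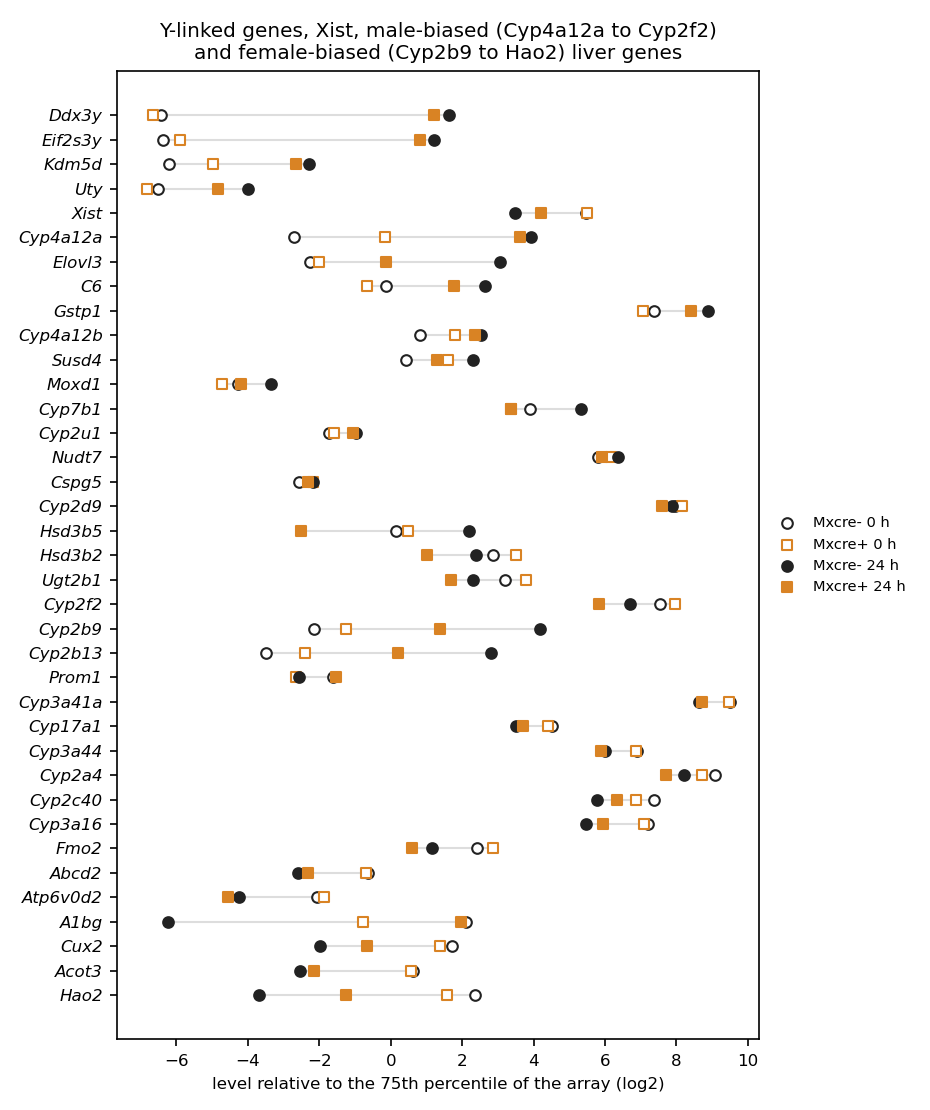
Levels (log2, the array's 75th percentile subtracted) of Y-linked genes, Xist and sex-biased liver genes on the 4 arrays; open symbols are 0 h, filled symbols 24 h, circles Mxcre- and squares Mxcre+. Ddx3y and Eif2s3y lie near -6 at 0 h and near 1 at 24 h, and most female-biased genes lie lower at 24 h.

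Markers of other liver cells moved in several lists, and in whole-tissue RNA fewer cells of a type and less RNA per cell cannot be told apart. Of 16 T and NK cell markers 5 fell and 0 rose (median -1.13). Gzma and Gzmb, granule proteases of cytotoxic cells, were at -2.44 and -3.69 at 0 h and -6.05 and -5.95 at 24 h and at -1.60 and -2.70 at 0 h and -4.09 and -4.11 at 24 h, and Cd3d, a part of the T cell receptor complex, fell by 1.39 ± 0.24 (limma adjusted p = 0.0316). None of the list was called after offset background correction with quantile normalisation (median -0.16), and the Mxcre- 0 h array was the highest for all 5. The 8 tested B cell markers had a median of -1.03 and 0 calls. Macrophage markers had 1 of 18 lower, Ly6c2, a share below that of all genes, and a median of -0.26 that turned to 0.18, with 1 higher and 0 lower, without the Mxcre- 0 h array and to 0.01 without the Mxcre+ 24 h array. The defining Kupffer marker Clec4f was at 4.27 and 3.43 at 0 h and 3.13 and 2.65 at 24 h.

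Of 14 stellate and matrix markers 3 rose: Hgf, Acta2, a smooth muscle actin of activated stellate cells, at 2.28 and 2.30 at 0 h and 3.68 and 3.67 at 24 h, and Tagln, which binds actin, by 1.37 ± 0.16. Of 10 tested cholangiocyte and progenitor markers 3 rose. Sox9, a duct and progenitor factor, was at -1.60 and -1.38 at 0 h and 1.18 and 1.49 at 24 h and rose by 2.83 ± 0.36 (limma adjusted p = 0.0204), and Spp1, osteopontin, and Krt7, a duct keratin, rose by 2.83 ± 0.44 and 1.26 ± 0.19. Epcam, a defining marker of ducts, was at -3.87 and -4.95 at 0 h and -4.40 and -4.14 at 24 h, and Krt19, another, at -1.26 and -1.57 at 0 h and -0.26 and -0.48 at 24 h. Endothelial markers had 2 of 15 lower (13.3%, beside 6.57% of all tested genes), Stab2 and Fcgr2b, scavenging receptors of sinusoids. Neutrophil markers had 1 of 15 higher (6.7%, beside 5.46% of all tested genes), Lcn2, which hepatocytes also make.

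Adipocyte, muscle and pancreas markers were mostly dim. Of 9 tested adipocyte markers Fabp4 and Cidea rose, Car3 fell and 6 were not called. Adipoq, the defining adipocyte hormone, was not well above background on any of the 4 arrays, at -5.06 and -5.71 at 0 h and -5.88 and -6.21 at 24 h. The muscle list had 1 call, Actn3, at least 6.45-fold higher, while 6 of its 12 members, Ckm among them, were below the filter. Of 8 tested pancreas markers Amy2a5, an amylase, fell by 1.50 ± 0.26, and 0 of 6 mesothelial markers were called. Of 7 tested erythroid markers the haemoglobin genes Hba-a1 and Hbb-bt rose by 0.76 ± 0.12 and 0.81 ± 0.12, Car1, a carbonic anhydrase of red cells, fell by 1.26 ± 0.23, and 4 were not called. The part of these other cells in the results above was not tested.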

How the data were processed

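Total RNA of 8 mouse liver samples was measured on 1-colour (Cy3) Agilent arrays, 1 sample per array. The values used are spot intensities as deposited. Per the file headers, Feature Extraction 10.7.3.1 made the processed signal (10.7 in the submitters' processing notes), subtracting background and removing a spatial trend, with no scaling between arrays. The deposited matrix holds log2 values whose scale is not stated; its 8 columns share a median of 5.51, each correlated with its own array at 0.999 or more across spots, and it was used only as an alternative.

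The processed signal was put on a log2 scale, and the 75th percentile of its array was subtracted. Control spots and outlier spots were dropped. Of 41174 probes 41056 were kept, and 26839 (65.4%) were named by matching unversioned accessions to a RefSeq list (GRCm38.p6), which gave 18316 genes. The array's design was annotated on another build, so no probe or gene coordinates are given. A gene was read from its brightest probe by mean signal, and 68 of 575 called genes with several probes had probes of opposite sign. A gene was tested where at least 2 of the 4 arrays had it well above background. No spot was saturated (0), and the number of arrays limits the precision.

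Differences were tested in R 4.3.3 through limma 3.58.1. The model had genotype and time as additive terms on all 8 arrays (3 residual degrees of freedom, 2.00 prior), with genes called at a Benjamini-Hochberg adjusted p below 0.05. The gene lists (45 lists, 745 of 847 genes tested) and the members were chosen with earlier results of these data known, and the lists are described by counts and medians with no test of their own. Ccnd1 could not be matched by accession. Genes named in the text are the 12 largest called changes in each direction, the 6 largest bounds in each direction, up to 4 called members of each list, a set of well-known liver genes, and the 6 largest gaps between genotypes. Further called list members and family members are named to complete counts of calls, and they and the neighbours of Tk1 were chosen after their values were seen. Some genes that the rule gave are not reported here. Alternatives covered the scaling, the background correction, the source of values, the filter, the probe rule, the spread estimate, the genotype term and each array left out. The files used hold no mean pixel signal, so background correction by normexp (offset 50) used median pixel signals, unlike the plan.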

Additional observations from a re-analysis of the deposited data

Results flagged for a closer look

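In 5 genes that were well above background on all 4 arrays the 24 h minus 0 h difference ran in opposite directions in the 2 genotypes, by the sizes given here (Mxcre+ change minus Mxcre- change, log2). With 1 array for each genotype and time, these differences were not tested. Dct, an enzyme of pigment synthesis, was at 4.57 and -3.95 at 0 h and -0.54 and 0.36 at 24 h, a gap of 9.41; both 0 h arrays lay apart from the rest, with later levels of -0.47 and -0.71 and -0.33 and 0.89. Ppp2r5a, a phosphatase regulatory subunit, was at 5.16 and -4.06 at 0 h and 4.57 and 4.57 at 24 h, a gap of 9.21, and the Mxcre+ 0 h array alone was low among the 8. Hsd3b5, a male-biased steroid dehydrogenase, was at 0.15 and 0.49 at 0 h and 2.20 and -2.52 at 24 h, a gap of -5.07, and was also lower in Mxcre+ than in Mxcre- liver at 36 h (0.004 and -1.30) and 48 h (1.11 and -2.69). Jph3, a junctional membrane protein, was at -4.16 and 0.03 at 0 h and -3.45 and -4.31 at 24 h, a gap of -5.06, and the Mxcre+ 0 h array alone was high. Il1rn, the interleukin 1 receptor antagonist, was at -0.12 and -2.32 at 0 h and -1.28 and 1.45 at 24 h, a gap of 4.93. Tuba3a, with 1 sign in both genotypes, had a gap of 6.79, and there too only the Mxcre+ 0 h array was low, at -4.10. Each gap is that of 1 probe, and the probes of some of these genes disagreed. Over the measured probes the 24 h minus 0 h difference ran from -0.60 to 4.02 for Ppp2r5a and from -0.60 to 1.31 for Il1rn. For Tuba3a it ran from 1.53 to 4.69. Of 12524 genes well above background on all 4 arrays, 738 (5.89%) had a gap of at least 2-fold, 29 changed at least 2-fold in opposite directions and 817 at least 2-fold in 1 direction in both.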

How the results depend on the processing

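The count of 1635 called genes (742 higher, 893 lower) stayed within 1.5 times under quantile normalisation (1727), the deposited matrix (1732), a filter on all 4 arrays (1846), no genotype term (1901), the mean of a gene's probes (1414), an intensity trend (2207) and a robust prior (1491), and under normexp with quantile normalisation, added after seeing the data (2189). It was 41 (30 higher, 11 lower) under normexp with the 75th percentile, where 94 of the called genes changed sign, 580 (264 and 316) with no filter on dim genes, where 18316 genes were tested, and 6 (3 and 3) with the 4 arrays alone, where 1 residual degree of freedom was left. Leaving out 1 array at a time gave 0 to 293 calls, 0 to 170 higher and 0 to 123 lower. Under normexp with the 75th percentile Egr2 was at -0.015, Btc at -0.11, Cdkn2b at -0.15, Nek2 at -0.14 and Tnfrsf10b at -0.14, against positive main differences; the cause was not tested. Settings that change only the filter, the spread estimate or the genotype term leave each difference as it was, so no sign could turn there. Of the 169 genes that the naming rule gave, 142 were called in the report. Outside normexp with the 75th percentile, 0 of these changed sign. Of the 27 that were not called 8 did, such as Dct (-0.40, and 4.17 without the Mxcre- 0 h array), Hsd3b5 (-0.48, and 1.33 without the Mxcre+ 0 h array), Il1rn (1.31, and -0.16 without the Mxcre+ 0 h array) and Pcna (0.08, and -0.25 without the Mxcre- 0 h array). Under quantile normalisation the medians of 3 lists turned positive, conjugation enzymes (0.04), hepatocyte transcription factors (0.02) and iron genes (0.04), all near 0 in the report. List medians changed sign in 9 lists without the Mxcre- 0 h array, 2 without the Mxcre+ 0 h array, 4 without each of the 24 h arrays and 14 under normexp with the 75th percentile, all 0.68 or smaller in size in the report. Among them the mitosis median went from 0.26 to -0.06 and the erythroid one from 0.40 to -0.16 without the Mxcre- 0 h array, the neutrophil one from 0.23 to -1.09 without the Mxcre+ 0 h array and the adipocyte one from 0.44 to -0.13 without the Mxcre+ 24 h array. Dim genes limit the folds given as bounds. No paired analysis was possible because each genotype and time had 1 array and the labels carry no replicate numbers; genotype is the block of the main model.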

Other observations

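Some gene families outside the lists above were counted after their values had been seen, so their counts are descriptions. Of 14 tested tubulin genes 8 rose and 0 fell, with a median difference of 1.44 beside -0.03 over all tested genes. Tubb2a, a beta tubulin, was at 3.47 and 3.92 at 0 h and 7.42 and 7.50 at 24 h and rose 13.6-fold (3.77 ± 0.16, limma adjusted p = 0.0131), Tubb6 was at 1.40 and 1.40 at 0 h and 3.95 and 4.34 at 24 h and rose by 2.74 ± 0.18, and Tubb5 was at 3.55 and 3.47 at 0 h and 5.57 and 5.85 at 24 h and rose by 2.20 ± 0.16. The times of these 3 genes did not overlap, and their levels at 48 h, 6.42 and 6.96 for Tubb2a, 5.19 and 5.16 for Tubb6 and 5.79 and 5.64 for Tubb5, were above those of 0 h. Tubulin genes are close in sequence, and a probe may read several. Of 18 keratins 4 rose and 0 fell: Krt8 and Krt18, the pair that forms the filaments of hepatocytes, were at 5.95 and 5.50 at 0 h and 7.83 and 8.04 at 24 h and at 6.77 and 6.50 at 0 h and 8.57 and 8.76 at 24 h, with Krt7 and Krt13 beside them. Of 28 collagens 4 rose (14.3%) and 2 fell (7.1%), beside 5.46% and 6.57% of all tested genes. The risers included Col4a1 and Col4a2 of basement membranes, by 2.21 ± 0.28 and 1.55 ± 0.15.

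Of 16 aminoacyl tRNA synthetases, which charge tRNAs for translation, 5 rose and 0 fell. Of 72 cytosolic ribosomal protein genes 1 rose, and of 44 subunit genes of respiratory complex I 0 were called. Among 264 solute carriers 23 rose (8.7%) and 30 fell (11.4%), beside 5.46% and 6.57% of all tested genes. Slc51b, a subunit of the basolateral bile acid exporter, was at -2.30 and -2.45 at 0 h and 1.63 and 1.14 at 24 h and rose 13.6-fold (limma adjusted p = 0.0216), and Slc10a6, a transporter of sulfated steroids, was at -4.01 and -5.02 at 0 h and -1.08 and -1.24 at 24 h and rose, well above background on 1 of 2 arrays at 0 h. Of 39 proteasome subunits 4 rose (10.3%) and 2 fell (5.1%), beside 5.46% and 6.57% of all tested genes. The 2 that fell were Psmb8 and Psmb10 of the interferon-inducible form, by 1.03 ± 0.18 and 0.87 ± 0.19. Itgb6, an integrin gene of epithelial repair, was at -3.96 and -6.93 at 0 h and -0.08 and 0.01 at 24 h, well above background on 1 of 2 arrays at 0 h. It was the 1 integrin of 23 called (4.3% higher, beside 5.46% of all tested genes).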
